A study of Homo sapiens with 4 samples.

Results

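The genes described here are 44 that neurons and neuroendocrine cells use, of 19483 genes named on the array. They were chosen by symbol. Probes were named through the RefSeq accession in the array files, which gave 1 gene for 74.5% of them, and the brightest probe stood for a gene. The 44 genes were covered by 56 probes, with 1 probe for 34 genes and several for 10 genes. The rule uses symbols alone, but the genes were proposed with earlier results of these data known, so their shares below are descriptions.

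RNA came from TR9_MeTA14 and TR15_MeTA5, which derive from LNCaP, an androgen-responsive human prostate cancer line of luminal character. Both lines carry the Tet repressor plasmid pcDNA6/TR and a second plasmid, pcDNA4/TO/NFκB (AD)-MBD, in which tetracycline turns on a FLAG-tagged fusion of a methyl-CpG-binding domain with the activation domain of NFκB. The fusion was built to bring an activator to methylated DNA, an approach the study calls methyl-CpG targeted transcriptional activation (MeTA). Each line was taken without tetracycline (-Tet) or with it for 4 days (+Tet), and each of the 4 conditions was measured on 1 Agilent array. Both lines are stable transfectants, and TR9 and TR15 were separate Tet repressor lines before the second plasmid was added, so any comparison between the lines also compares those starting cells. Tetracycline-treated cells without the fusion were not analysed here. In bulk RNA, a change in the share of cells that express a gene and a change in the amount of RNA per cell cannot be told apart.

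Neuroendocrine cells store peptides and amines in dense-core granules, whose matrix is built of chromogranins and secretogranins, and release them by the same fusion machinery that empties synaptic vesicles. Neurons add a cytoskeleton of neurofilaments, class III tubulin and microtubule-associated proteins. In most other cells many of these genes are held silent by REST, a zinc finger repressor that binds the RE1 element and recruits the CoREST corepressors, histone deacetylases and methyltransferases. In the prostate, neuroendocrine cells are rare in the normal gland, and the genes CHGA, SYP, ENO2 and NCAM1 are widely used to recognise neuroendocrine differentiation of cancers.

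Because the fusion binds methylated CpG, the DNA at the gene starts is shown first. The sequences come from RefSeq on GRCh38.p14, each is the 250 bases before the start with the most CpG, read 5′ to 3′ on the gene's strand, and capitals mark every CpG. Of the members with such a sequence, both lines showed STX1A, TUBB2B, TUBB3, CHGA and INA at least 2-fold brighter with tetracycline. The sequence of STX1A holds 31 CpG and is not shown. Those of TUBB2B, TUBB3, CHGA and INA are shown. They lie at chr6:3227654-3227903 (- strand), chr16:89923092-89923341 (+ strand), chr14:92922900-92923149 (+ strand) and chr10:103276888-103277137 (+ strand), and hold 28, 39, 21 and 30 CpG.
TUBB2B: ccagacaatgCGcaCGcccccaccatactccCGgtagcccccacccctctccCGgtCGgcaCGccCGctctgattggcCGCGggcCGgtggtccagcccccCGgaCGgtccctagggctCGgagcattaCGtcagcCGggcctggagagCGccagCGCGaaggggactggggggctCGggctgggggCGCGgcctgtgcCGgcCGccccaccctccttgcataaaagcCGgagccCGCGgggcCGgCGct
TUBB3: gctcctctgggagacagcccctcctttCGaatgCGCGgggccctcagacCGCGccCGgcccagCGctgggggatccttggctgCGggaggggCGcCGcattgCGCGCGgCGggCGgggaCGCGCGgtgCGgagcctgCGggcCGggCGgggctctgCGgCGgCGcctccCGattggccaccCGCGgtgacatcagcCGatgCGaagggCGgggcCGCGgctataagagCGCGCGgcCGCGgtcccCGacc
CHGA: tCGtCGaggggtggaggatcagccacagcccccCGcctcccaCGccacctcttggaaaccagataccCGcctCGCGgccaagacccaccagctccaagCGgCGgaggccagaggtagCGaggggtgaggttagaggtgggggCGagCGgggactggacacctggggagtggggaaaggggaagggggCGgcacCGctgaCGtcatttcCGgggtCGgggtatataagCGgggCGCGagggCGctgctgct
INA: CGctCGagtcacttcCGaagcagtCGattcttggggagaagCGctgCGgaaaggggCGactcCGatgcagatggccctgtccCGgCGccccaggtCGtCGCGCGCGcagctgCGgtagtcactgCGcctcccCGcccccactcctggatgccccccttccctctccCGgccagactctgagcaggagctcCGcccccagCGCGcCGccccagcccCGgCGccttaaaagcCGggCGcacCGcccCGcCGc

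NEUROD1 and SYP are shown because their CpG counts, 24 and 31 in the 250 bases, lie within the range of the starts above. Their probes were not well above background on any array. SCN7A is shown because it was the member at least 2-fold lower in both lines, and its window holds 10 CpG. These windows are chr2:181680518-181680767 (- strand), chrX:49200194-49200443 (- strand) and chr2:166494250-166494499 (- strand).
NEUROD1: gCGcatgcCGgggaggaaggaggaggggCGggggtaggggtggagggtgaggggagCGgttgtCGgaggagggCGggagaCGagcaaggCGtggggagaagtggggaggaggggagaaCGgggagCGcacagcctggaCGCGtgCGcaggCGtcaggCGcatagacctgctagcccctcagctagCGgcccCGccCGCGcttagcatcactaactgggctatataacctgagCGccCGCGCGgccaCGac
SYP: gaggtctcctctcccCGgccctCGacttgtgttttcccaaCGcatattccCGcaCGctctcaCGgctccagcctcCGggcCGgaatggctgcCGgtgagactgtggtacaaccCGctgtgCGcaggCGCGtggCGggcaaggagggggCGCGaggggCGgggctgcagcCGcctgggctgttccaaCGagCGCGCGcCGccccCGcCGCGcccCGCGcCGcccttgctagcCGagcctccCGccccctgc
SCN7A: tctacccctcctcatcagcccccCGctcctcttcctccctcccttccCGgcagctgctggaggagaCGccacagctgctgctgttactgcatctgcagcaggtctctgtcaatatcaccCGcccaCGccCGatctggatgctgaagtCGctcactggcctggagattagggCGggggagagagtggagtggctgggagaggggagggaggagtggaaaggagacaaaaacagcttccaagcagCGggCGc

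Signals are given as scaled signals, in which the 75th percentile of every array is 500, so that a value can be compared between arrays for the same gene. They do not rank genes against each other, since each probe has its own response. A probe counted as measured where the scanner software called it well above background, and the lowest scaled signals so called were 12.5 and 8.96 on the TR9_MeTA14 arrays (-Tet and +Tet) and 21.0 and 17.7 on the TR15_MeTA5 arrays. Where the dimmer of 2 arrays was not well above background, the change is a lower bound, written "at least", from that floor or the probe's own signal, whichever was higher. No condition was repeated, so there is no p-value within a line, and a change is called where it reached 2-fold, the study's cut-off. Replicate spots within an array gave an SD of 0.0862 for a log2 ratio of 2 single spots, which covers spot noise alone. It came from probes with 10 spots, all well above background, and does not cover dim probes. Between 68.3% and 77.3% of all genes were above background per array, no spot was saturated, and the 75th percentile signals before scaling were 617 and 777 (TR9_MeTA14) and 367 and 542 (TR15_MeTA5).

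Of the 44 genes, 18 were well above background in TR9_MeTA14 -Tet and 27 in TR9_MeTA14 +Tet, or 40.9% and 61.4%. In TR15_MeTA5 the numbers were 18 and 24, or 40.9% and 54.5%. The members were thus measured less often than all genes on every array, with 15 of 44 (34.1%) below background on all 4 arrays against 19.6% of all genes, and 15 (34.1%) above it on all 4 against 65.1%. The members above background on both +Tet arrays and on neither -Tet array (7 of 44, 15.9%, against 2.96% of all genes) were CHGA, NEFL, NEFM, NEFH, TUBB2B, ELAVL3 and SYT1. SCN7A showed the opposite, above background on both -Tet arrays and neither +Tet array (1 of 44, 2.27%, against 0.205% of all genes).

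The genes below background everywhere included several that define the neuroendocrine state. They were the granule proteins CHGB, SCG2 and SCG5, the peptide precursor NTS, the prohormone convertases PCSK1 and PCSK2, the vesicle proteins SYP and RAB3C, the growth and migration genes DCX, STMN2 and GAP43, the adhesion molecule NCAM1, the glutamate receptor subunit GRIA2, and the transcription factors INSM1 and NEUROD1. Their scaled signals lay between 1.83 and 19.1 over the 4 arrays, and no change can be given for them.

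**Figure D1:**
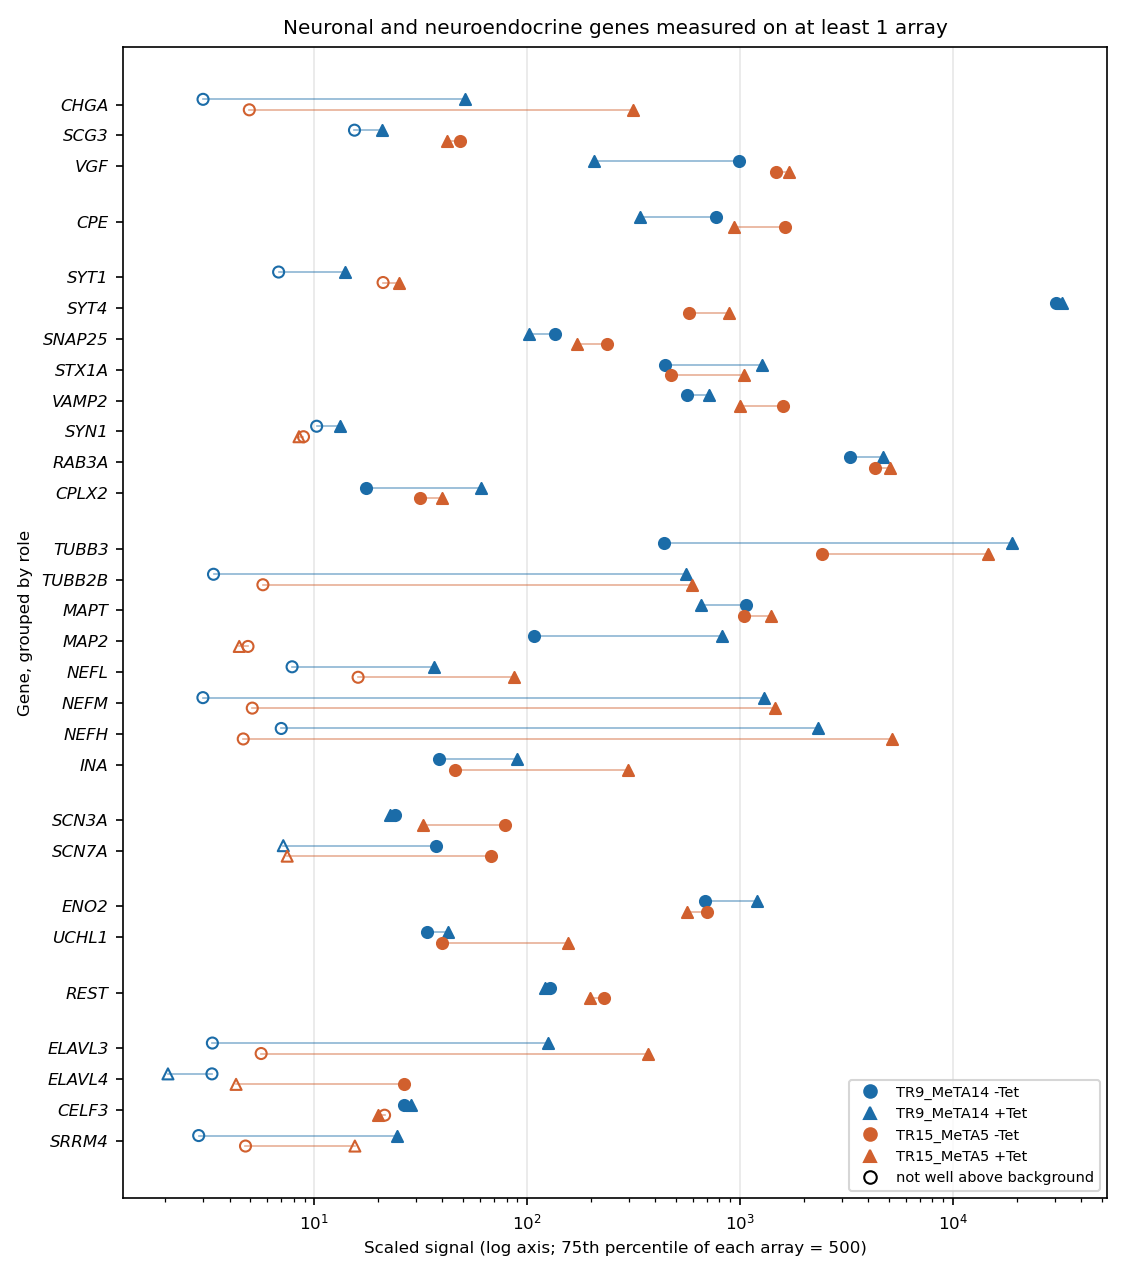
Scaled signal (log axis, 75th percentile of each array = 500) of the 29 members well above background on at least 1 array, grouped by role; circles are -Tet and triangles +Tet, blue TR9_MeTA14 and orange TR15_MeTA5, and open symbols are not well above background. Each point is 1 array, so there are no error bars; the long lines with an open circle at the left are NEFH, NEFM, TUBB2B, ELAVL3 and CHGA.

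With tetracycline, 11 of the 28 members that could be compared in TR9_MeTA14 were at least 2-fold higher (39.3%, against 16.8% of all genes compared) and 3 were at least 2-fold lower (against 15.1% of all genes). In TR15_MeTA5 the numbers were 10 of 25 higher (40%, against 9.78%) and 2 lower (8%, against 2.21%). Of 24 members compared in both lines, 9 were higher in both (37.5%, against 8.21% of all genes), CHGA, ELAVL3, INA, NEFH, NEFL, NEFM, STX1A, TUBB2B and TUBB3, and SCN7A alone was lower in both (4.17%, against 0.838%). The median log2 change was 0.475 in TR9_MeTA14 and 0.342 in TR15_MeTA5, beside -0.0639 and -0.162 over all genes. A gene that was above background only with tetracycline could enter these counts only as higher, and 6 of the 9 genes higher in both lines (CHGA, ELAVL3, NEFH, NEFL, NEFM and TUBB2B) entered in that way. After background correction with normexp and quantile normalization 7 members were higher in TR9_MeTA14 and 5 in both lines.

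The lines together allowed a test of the tetracycline effect across all probes (limma, 4 arrays, line as a block, 1 residual degree of freedom), in which each line serves as a repeat of the other. It called 593 of 22808 probes higher (2.6%) and 3 lower (0.0132%) at an adjusted p under 0.05. Of 26 members tested, 5 were called higher, CHGA, ELAVL3, NEFH, NEFM and TUBB2B, and 0 lower. All 5 passed the filter on dim probes through their +Tet arrays alone. This count of 5 and their adjusted p-values below are therefore descriptions and not support. Their fitted changes, which rest on signals below background, are not given. At an unadjusted limma p under 0.05, 9 members were higher and 2 lower, and 4448 of the 22808 probes passed in either direction. When only probes above background on all 4 arrays were tested, 15 members remained and limma called 0 of them, against 182 of 19298 probes. At an unadjusted p under 0.05, 3 of the 15 were higher and 1 lower, and 3675 of the 19298 probes passed in either direction.

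**Figure D2:**
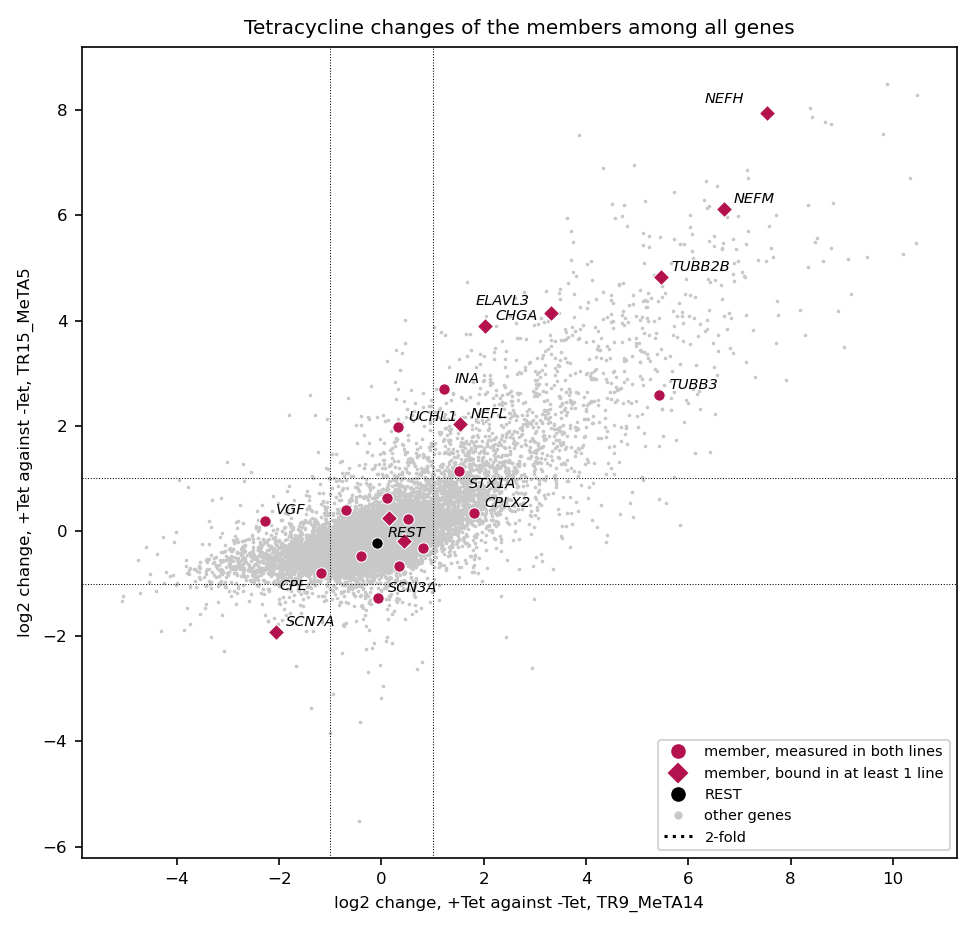
Log2 change with tetracycline in TR9_MeTA14 (x axis) and TR15_MeTA5 (y axis) for the 13970 genes compared in both lines (grey) and the 24 members among them (red, REST in black); diamonds are lower bounds in at least 1 line and dotted lines mark 2-fold. NEFH, NEFM, TUBB2B and TUBB3 lie farthest to the upper right, SCN7A lies at the lower left, and REST lies near 0 in both lines.

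The genes of the neuronal cytoskeleton and growth cone made up most of the higher members. In TR9_MeTA14, 7 of 8 compared were at least 2-fold higher (87.5%, against 16.8% of all genes) and the median log2 change was 4.18. In TR15_MeTA5, 6 of 7 were higher (85.7%, against 9.78%) with a median of 2.7. Of these, NEFH, NEFM, NEFL and TUBB2B were above background only with tetracycline and could enter only as higher. The neurofilament subunits NEFL, NEFM and NEFH build the light, medium and heavy chains of the axonal intermediate filament, and INA, alpha-internexin, joins them.

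NEFH read 7.0 and 2319.9 in TR9_MeTA14 (-Tet and +Tet) and 4.64 and 5182 in TR15_MeTA5. Neither -Tet array was above background, so the change was at least 185-fold and at least 246-fold. The limma adjusted p was 0.0139. A second, dimmer NEFH probe gave a TR9_MeTA14 change of 15.5-fold or more and a TR15_MeTA5 log2 change of 4.25 or more, the same direction.

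NEFM read 3.0 and 1294 in TR9_MeTA14 and 5.12 and 1457 in TR15_MeTA5, at least 103-fold and at least 69.3-fold higher with tetracycline (limma adjusted p = 0.0139). Both +Tet signals stood far above both -Tet signals, which were below background. NEFL was dimmer, at 7.87 and 36.5 in TR9_MeTA14 and 16.1 and 86.2 in TR15_MeTA5. Its change was at least 2.91-fold and at least 4.10-fold and missed the limma threshold (adjusted p = 0.0653). After normexp the log2 bounds were 0.35 and 0.82.

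INA was measured on all 4 arrays, at 38.4 and 89.6 in TR9_MeTA14 and 45.9 and 298.6 in TR15_MeTA5. The +Tet signals were 2.33-fold and 6.51-fold higher, and limma gave an adjusted p of 0.152. After normexp the change in TR9_MeTA14 was 0.51 on the log2 scale.

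TUBB3, the class III beta-tubulin used as a marker of young neurons, read 437.9 and 18893 in TR9_MeTA14 and 2429 and 14634 in TR15_MeTA5. All 4 arrays were above background, so the folds of 43.1 and 6.02 are measured ones. The -Tet level was 5.55-fold higher in TR15_MeTA5 than in TR9_MeTA14, while the +Tet levels differed by 0.37 on the log2 scale, with TR9_MeTA14 the higher. Over both lines the log2 change was 4.01 ± 0.73 (SE) with a limma adjusted p of 0.0912.

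TUBB2B, a beta-tubulin of migrating neurons, read 3.36 and 555.2 in TR9_MeTA14 and 5.74 and 597.2 in TR15_MeTA5, at least 44.3-fold and at least 28.4-fold higher (limma adjusted p = 0.0139). Its +Tet signals in the lines were within 1.08-fold of each other. TUBB3 and TUBB2B are close relatives in a tubulin family, and probes of such relatives may bind each other's transcripts.

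MAP2, a dendritic microtubule-associated protein, differed by line. It read 107.6 and 819.7 in TR9_MeTA14, 7.62-fold higher with tetracycline, and 4.88 and 4.44 in TR15_MeTA5, below background on both arrays. MAPT, the axonal tau protein, read 1062 and 658 in TR9_MeTA14 and 1047 and 1391 in TR15_MeTA5, log2 changes of -0.69 and 0.41 that stayed under 2-fold.

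Of the 7 dense-core granule cargo proteins, 4 (CHGB, SCG2, SCG5 and NTS) were below background everywhere. CHGA, chromogranin A, read 3.0 and 50.8 in TR9_MeTA14 and 4.95 and 314.4 in TR15_MeTA5. It was at least 4.06-fold and at least 14.9-fold higher with tetracycline (limma adjusted p = 0.0375), and both +Tet arrays lay above both -Tet arrays. After normexp the log2 bound in TR9_MeTA14 was 0.57.

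VGF, the precursor of several neuropeptides, moved otherwise. It read 992.8 and 205.3 in TR9_MeTA14, 4.83-fold lower with tetracycline, and 1470.4 and 1688 in TR15_MeTA5, a log2 change of 0.20. SCG3, a secretogranin that anchors chromogranin A to the granule membrane, read 15.5 and 20.9 in TR9_MeTA14, the first below background, and 48.2 and 42.2 in TR15_MeTA5. Its change was at least 1.35-fold upwards in TR9_MeTA14, with no upper limit, and -0.19 on the log2 scale in TR15_MeTA5.

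Among the prohormone processing enzymes only CPE, the carboxypeptidase that trims peptides inside the granule, was measured. It read 768.5 and 337 in TR9_MeTA14 and 1622 and 932.9 in TR15_MeTA5. It was thus lower with tetracycline in both lines, by 2.28-fold and 1.74-fold (limma adjusted p = 0.192).

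Of the 10 synaptic vesicle and exocytosis proteins, 2 (SYP and RAB3C) were below background everywhere. STX1A, the syntaxin of the plasma membrane fusion complex, was at least 2-fold higher in both lines. Its signals were 445.3 and 1272 in TR9_MeTA14 and 474.5 and 1044 in TR15_MeTA5, changes of 2.86-fold and 2.20-fold (limma adjusted p = 0.111). A second STX1A probe, for another transcript, lay at or near background, and after normexp the change in TR15_MeTA5 was 0.94 on the log2 scale.

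CPLX2, a complexin that clamps the fusion complex, read 17.5 and 60.9 in TR9_MeTA14, 3.48-fold higher with tetracycline, and 31.5 and 39.9 in TR15_MeTA5. The change in TR9_MeTA14 was 0.55 on the log2 scale after normexp, and a second CPLX2 probe was below background on all arrays.

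VAMP2, the vesicle partner of STX1A, read 563.4 and 710.8 in TR9_MeTA14 and 1585 and 1003.5 in TR15_MeTA5, and the log2 changes were 0.34 and -0.66. Its 3 probes gave 0.34, -0.03 and 0.02 in TR9_MeTA14 and -0.66, -0.26 and -0.56 in TR15_MeTA5. The direction in TR9_MeTA14 therefore depended on the probe.

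SYT4, a synaptotagmin of dense-core vesicles, read 30315 and 32577 in TR9_MeTA14 and 572.8 and 887.8 in TR15_MeTA5, changing by 0.10 and 0.63 on the log2 scale with tetracycline. The vesicle GTPase RAB3A (log2 changes 0.51 and 0.23) and the fusion protein SNAP25 (-0.40 and -0.48) were measured on all 4 arrays and changed less than 2-fold. SYT1 and SYN1, a calcium sensor and a vesicle tether, did not exceed 24.9 on any array.

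Both sodium channel genes were measured without tetracycline in both lines. SCN7A, an atypical sodium channel of glia and sensory neurons, read 37.5 and 7.15 in TR9_MeTA14 and 67.4 and 7.46 in TR15_MeTA5. It was at least 4.18-fold and at least 3.80-fold lower with tetracycline, with both +Tet arrays below background (limma adjusted p = 0.0636, from a filter passed through the -Tet arrays alone). After normexp the log2 bounds were -0.55 and -0.90.

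SCN3A, a sodium channel of the developing brain, read 23.9 and 22.8 in TR9_MeTA14 and 78.5 and 32.3 in TR15_MeTA5. The 2.43-fold lower signal in TR15_MeTA5 +Tet became -0.85 on the log2 scale with scaling on spike-in probes and -0.64 after normexp. The neuron-enriched enzymes split by line. UCHL1, a ubiquitin hydrolase, read 33.9 and 42.6 in TR9_MeTA14 and 39.7 and 155.6 in TR15_MeTA5, 3.92-fold higher with tetracycline in TR15_MeTA5. ENO2, neuron-specific enolase, read 685.7 and 1204 in TR9_MeTA14 and 699.7 and 561.4 in TR15_MeTA5, under 2-fold in each and of unsettled direction in TR15_MeTA5, where spike-in scaling gave a log2 change of 0.11.

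Among the neuronal RNA-binding proteins ELAVL3, a Hu protein that stabilises neuronal transcripts, was higher in both lines. It read 3.32 and 125 in TR9_MeTA14 and 5.63 and 370.6 in TR15_MeTA5, at least 9.97-fold and at least 17.6-fold higher (limma adjusted p = 0.0159). Its relative ELAVL4 was above background on the TR15_MeTA5 -Tet array only, at 26.4 (3.31 and 2.06 in TR9_MeTA14, 4.29 in TR15_MeTA5 +Tet). The splicing regulator CELF3 did not exceed 28.3 on any array. SRRM4, another, was above background in TR9_MeTA14 +Tet only, at 24.4 against 2.87 without tetracycline, which is at least 1.95-fold and sets no upper limit.

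REST itself was measured on every array and was nearly level within each line. It read 127.9 and 121.3 in TR9_MeTA14 and 230.3 and 196.7 in TR15_MeTA5, log2 changes of -0.08 and -0.23, and limma gave -0.15 ± 0.27 (SE, adjusted p = 0.772). The TR15_MeTA5 arrays read 1.80-fold and 1.62-fold above the TR9_MeTA14 arrays, while spike-in scaling turned these log2 differences of 0.85 and 0.70 to -0.21 and -0.06. Scaling on spike-in probes turned the sign of both REST changes, to 0.06 and 0.20. It moved the median change over the array in TR15_MeTA5 from -0.185 to 0.247. That median is over another set than the genes compared above, whose median was -0.162. The array measures the transcript and not the protein or its binding.

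Corepressors and regulators of REST were given as a list of 19 genes, all measured. In TR9_MeTA14, 4 were at least 2-fold higher (21.1%, against 16.8% of all genes) and 3 lower (15.8%, against 15.1%) with tetracycline, and in TR15_MeTA5 2 were higher (10.5%, against 9.78%) and 0 lower, shares near those of all genes. RCOR1, the first CoREST gene, read 936.7 and 1955 in TR9_MeTA14 and 882.3 and 1367 in TR15_MeTA5. RCOR2, its relative, read 314.3 and 6006 in TR9_MeTA14 and 231 and 2514 in TR15_MeTA5, 19.1-fold and 10.9-fold higher (limma adjusted p = 0.0202). EHMT1, a histone H3 lysine methyltransferase, was the other gene higher in both lines, by 3.36-fold and 2.09-fold.

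Other lists of neuronal genes were read in the same way. Of 28 further neuronal and neuroendocrine transcription factors, 13 were below background everywhere (46.4%, against 19.6% of all genes) and 6 of 12 compared in both lines were higher in both (50%, against 8.21%). The largest by the smaller of both changes were ASCL2, LHX2 and ONECUT2. ASCL2 was at least 118.5-fold and 34.2-fold higher, LHX2 50.2-fold and 10.0-fold, and ONECUT2 11.4-fold and 6.47-fold. Some of the factors higher in both lines were above background only with tetracycline and could enter that share only as higher.

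Of 34 further vesicle and exocytosis genes, 9 were below background everywhere (26.5%) and 2 of 17 compared in both lines were higher in both (11.8%, near the 8.21% of all genes), the vesicle protein SYNGR3 (21.0-fold and 7.41-fold) and the complexin CPLX1 (15.9-fold and 4.88-fold). Of 25 further peptide hormone and processing genes with a probe, 8 were below background everywhere (32%) and 4 of 15 were higher in both (26.7%). These included cholecystokinin, CCK, at least 20.2-fold and at least 120.1-fold higher, adrenomedullin, ADM, 7.96-fold and 5.93-fold, and neuropeptide Y, NPY, 4.14-fold and at least 17.1-fold. CCK was among those above background only with tetracycline, which could enter the share only as higher.

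The lines were also compared with each other on each treatment, using the same 4 arrays. Without tetracycline, 6 of 20 members compared were at least 2-fold higher in TR15_MeTA5 (30%, against 8.17% of all genes) and 2 at least 2-fold lower (10%, against 5.19%). With tetracycline, 10 of 26 were higher (38.5%, against 14.2%) and 3 lower (11.5%, against 10.4%). On both treatments CPE and SCG3 were higher (2 of 18, 11.1%, against 3.39%) and MAP2 and SYT4 lower (11.1%, against 2.2%). The limma line effect called 0 of 22808 probes (0%), with 3657 at an unadjusted p under 0.05, and the lowest adjusted p among the members was 0.148.

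SYT4 differed the most among the members measured on all arrays. The TR15_MeTA5 signals of 572.8 and 887.8 were 52.9-fold and 36.7-fold below the TR9_MeTA14 signals (limma log2 difference -5.46 ± 0.28 SE, adjusted p = 0.148). MAP2 was at least 5.11-fold lower in TR15_MeTA5 without tetracycline and at least 46.2-fold lower with it. CPE was 2.11-fold and 2.77-fold higher in TR15_MeTA5, and SCG3 was at least 3.12-fold and 2.02-fold higher.

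Several members differed between the lines on 1 treatment. Without tetracycline TUBB3 (5.55-fold), SCN3A (3.28-fold), VAMP2 (2.81-fold) and ELAVL4 (at least 2.10-fold) were higher in TR15_MeTA5. The VAMP2 value rests on its brightest probe. Its other probes gave 1.02-fold and 1.28-fold, and the mean over its probes gave a log2 difference of 0.62. With tetracycline VGF (8.22-fold), CHGA (6.18-fold), UCHL1 (3.66-fold), INA (3.33-fold), ELAVL3 (2.96-fold), NEFL (2.36-fold), NEFH (2.23-fold) and MAPT (2.11-fold) were higher and ENO2 was 2.14-fold lower. Scaling on spike-in probes lowered all line differences. It moved their median over the array from 0.132 to -0.922 on the log2 scale without tetracycline and from 0.10 to -0.66 with it. Under it the differences given above for CPE, SCN3A, VAMP2, INA, ELAVL3, NEFL, NEFH and MAPT, and for SCG3 with tetracycline, were within 2-fold. The bounds for SCG3 and ELAVL4 without tetracycline also came under 2-fold, which leaves their size unknown.

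**Figure D3:**
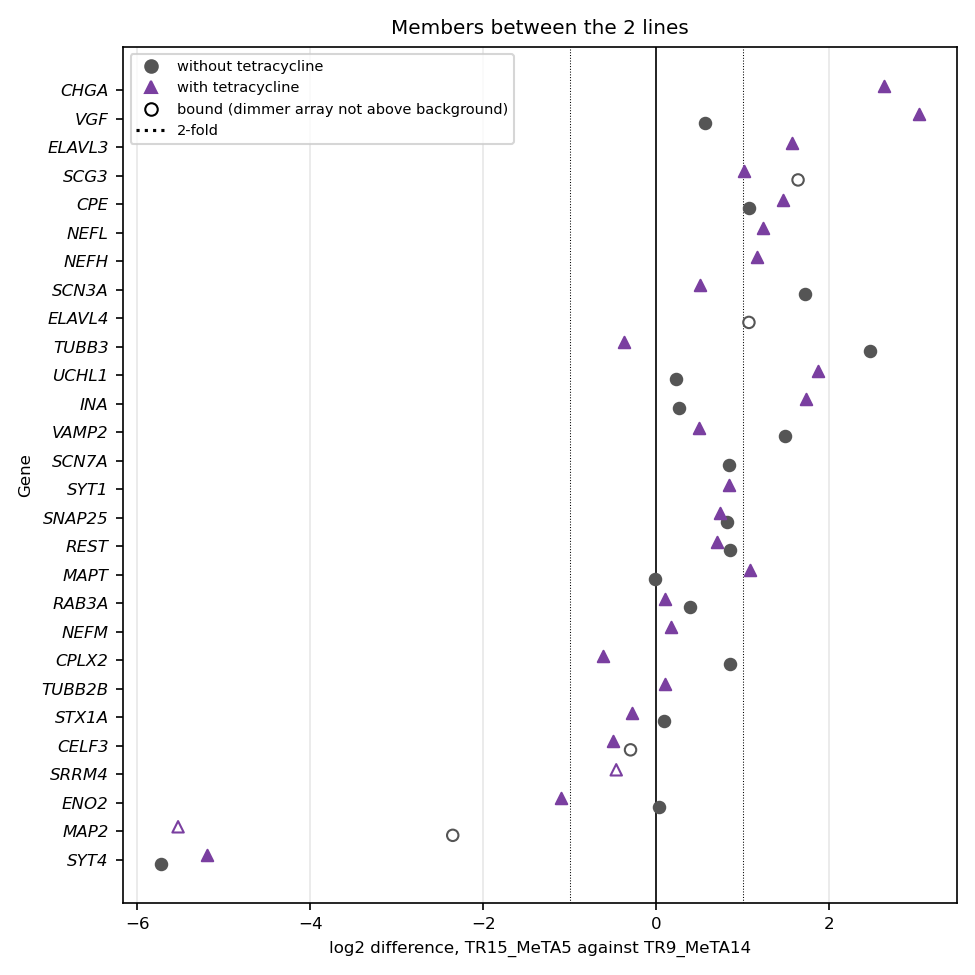
Log2 difference between the lines, TR15_MeTA5 against TR9_MeTA14, of each member that could be compared, without tetracycline (grey circles) and with it (purple triangles); open symbols are bounds and dotted lines mark 2-fold, each point being the difference of 2 arrays. SYT4 and MAP2 lie far to the left on both treatments, and VGF and CHGA lie farthest to the right with tetracycline.

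Markers of other cell types were measured beside these genes. All 9 luminal prostate markers, KLK3 among them, were above background on every array, and their summed scaled signal was 250900 and 90320 in TR9_MeTA14 and 332600 and 210500 in TR15_MeTA5. The sum weighs bright probes most, KLK3 above all. Of the 9 markers, 6 were at least 2-fold lower with tetracycline in TR9_MeTA14 (66.7%, against 15.1% of all genes). In TR15_MeTA5 0 were (against 2.21%). The basal markers KRT5, KRT14 and TP63 were below background on all arrays, as were 5 of 6 fibroblast markers.

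The immune list was at 168.9 and 916.2 in TR9_MeTA14 and 294.3 and 621.8 in TR15_MeTA5, with 4, 4, 3 and 3 of its 4 genes above background. CD14 was 9.61-fold and 4.77-fold higher with tetracycline. Of the 4 glial markers GFAP was below background everywhere, while SOX10 was at least 25.7-fold and at least 3.95-fold higher. The summed glial signal was 1203 and 533.2 in TR9_MeTA14 and 826.9 and 825.2 in TR15_MeTA5. The part of these markers in the changes of the neuronal genes was not tested.

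CpG was then counted in 300 bases at each start, 250 before it and 50 after it, for the 32 of 44 members that the RefSeq table held. Where a gene had several starts the one with the most CpG was used. All 15176 genes with a window held a median of 25 CpG, and CHGA held 24. The 5 members with a window that were higher in both lines (CHGA, INA, STX1A, TUBB2B and TUBB3) held a median of 35 CpG (24 to 47), and all 839 genes higher in both lines held a median of 27. SCN7A, lower in both, held 11, and all 87 such genes a median of 27. The 16 other measured members with a window held a median of 24.5 (8 to 51). All 11417 such genes held a median of 27, the same as the genes higher in both lines. The 10 members below background on all arrays held a median of 19.5 (2 to 44), and all 2833 such genes a median of 7. Among those members GRIA2, SYP, NEUROD1 and PCSK2 held between 30 and 44 CpG, within the range of the members that were higher in both lines. TUBB3 has 2 starts in the table, with 47 and 9 CpG, and the array does not tell which was used. The arrays did not measure methylation at any of these starts.

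**Figure D4:**
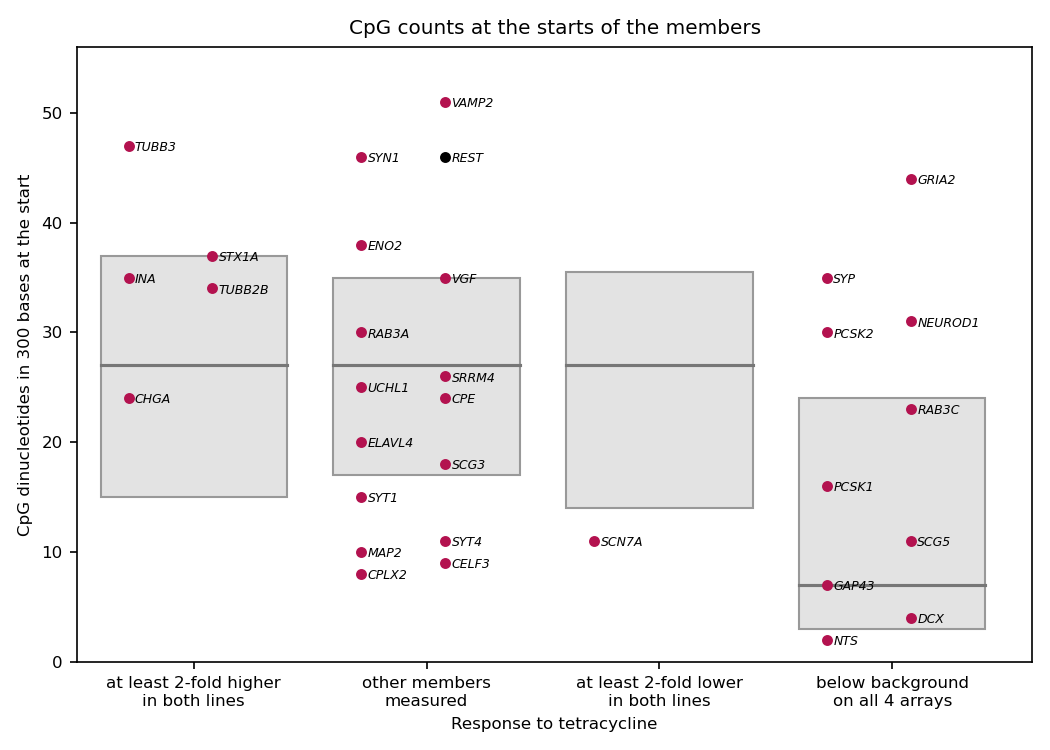
CpG dinucleotides in 300 bases at the start (y axis) of the 32 members with a RefSeq window, by response to tetracycline (x axis); grey boxes span the quartiles of all genes of the same class, with the median as a line. Members higher in both lines lie between 24 and 47, and members below background on all 4 arrays range from 2 to 44.

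The half-sites of the RE1 element to which REST binds, CAGCACC and GGACAGC, were searched on both strands of the same windows. CAGCACC was found in 5 of 50 member windows (10%, against 7.75% of all 35116 windows) and GGACAGC in 8 (16%, against 6.03%). Both half-sites stood in the same window for GRIA2 and SCG3 (4%, against 0.738%). In GRIA2 they were 2 bases apart, the spacing of the RE1 element, which 1 of 50 member windows (2%) and 15 of all windows (0.0427%) showed. The site lay 213 to 228 bases before the start, on the opposite strand, within chr4:157220371-157220426 (+ strand), printed with both half-sites and the bases between them in capitals.
GRIA2: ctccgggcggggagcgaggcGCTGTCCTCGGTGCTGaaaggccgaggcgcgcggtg

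GRIA2 was below background on all 4 arrays, at 2.19 to 5.06. None of the 5 members with a window that were higher in both lines held either half-site. A match is a description of these letters, RE1 elements also lie outside such windows, and no binding was measured here.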

How the data were processed

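The authors hybridized Cy3-labeled cRNA of both lines, untreated or given tetracycline for 4 days, to 4 Agilent whole human genome arrays, 1 per condition. The authors deposited the spot intensity of each array as the processed signal of Agilent Feature Extraction (10.7.3.1 per the file headers, 9.5.1 per the submitters' processing notes), background-subtracted but with no normalization between arrays. The series' value table, also deposited, held the same processed intensity on all 44495 rows.

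Here, outlier spots (255 to 344 on an array) were left out, log2 signals were averaged per probe, and each array's 75th percentile of the 34127 probes was subtracted. Of the probes, 74.5% were named to 1 gene through RefSeq accessions. Probes called well above background on 2 or more arrays were fitted with limma 3.58.1 in R 4.3.3 (line and tetracycline, trend, 1 residual degree of freedom), with Benjamini-Hochberg adjustment over all 22808 probes. The fit was tested on simulated data. Nothing says that the arrays came from separate cultures, and with 4 arrays their number sets the precision. All arrays lay on the same slide. Promoter sequences are RefSeq's on GRCh38.p14.

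The members and the lists were chosen with earlier results of these data known. Every array's value is given for REST and each member at least 2-fold different in any comparison. From each other list, up to 3 genes at least 2-fold changed in both lines were named by the smaller change, plus RCOR1 and RCOR2. KLK3 and the marker genes below background were named as examples after their values were seen, and some markers are not reported here by name. Alternatives were quantile normalization, scaling on the median or on spike-in probes, normexp (offset 50, on median spot intensities) with quantile normalization, the deposited table, all spots, stricter and no filters, the mean over a gene's probes, plain ratios, a cut-off of 1.5-fold or of 3-fold, and limma without the line or the trend.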

Additional observations from a re-analysis of the deposited data

Results flagged for a closer look

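Of 24 members compared in both lines, 5 moved in opposite directions in the lines, each by more than the spread of replicate spots. That spread was taken from probes whose spots were all well above background. It does not measure the noise of a dim probe such as that of SCG3. The share of all genes that moved in opposite directions is not given, so the count of 5 is a description. Scaling on spike-in probes gave VGF, MAPT and VAMP2 the same opposite signs, but turned TR15_MeTA5 upwards for ENO2 (0.11) and SCG3 (0.24). The differences between the lines were not tested, since each condition had 1 array. VGF changed by -2.27 in TR9_MeTA14 and 0.20 in TR15_MeTA5 on the log2 scale. ENO2 changed by 0.81 and -0.32, and MAPT by -0.69 and 0.41. VAMP2 changed by 0.34 and -0.66, with its other probes near 0 in TR9_MeTA14. SCG3 changed by at least 0.43 in TR9_MeTA14, where its -Tet signal was below background, and by -0.19 in TR15_MeTA5.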

How the results depend on the processing

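Each group held 1 array, so no pairing other than by line was possible. Pairing by line was part of the limma fit, and without the line term 4 members were called higher for tetracycline. No array could be left out because the fit would keep no residual degree of freedom. No member change or line difference of at least 2-fold reversed its direction under any alternative in which it could be compared. The deposited table holds the same signals and tests nothing. Of 47 member changes or line differences of at least 2-fold, bounds counted at their value, 31 kept their direction and 2-fold size after normexp with quantile normalization, 34 with scaling on spike-in probes, 45 with quantile normalization or the mean over probes, and 46 with scaling on the median. With the filter on all 4 arrays, 23 could be compared and all 23 kept both.

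After normexp, members at least 2-fold higher numbered 7 in TR9_MeTA14 (11 before) and 5 in both lines (9 before), and those lower were 0 in TR15_MeTA5 and 0 in both lines. With the filter on all 4 arrays, higher members numbered 4 in TR9_MeTA14, 4 in TR15_MeTA5 and 3 in both, and lower members 1 in TR15_MeTA5 and 0 in both, with fewer genes tested. Lower members in TR15_MeTA5 (2 in the report) were 1 with spike-in scaling, 4 without a filter, 1 at 3-fold and 4 at 1.5-fold, and those lower in both lines were 2 at 1.5-fold. Members called higher by limma for tetracycline (5) were 0 with the filter on all 4 arrays, 3 after normexp and 8 with spike-in scaling. SCN7A was called lower, making 1, without a filter, without the trend, with quantile normalization and with spike-in scaling. SYT4 was called lower in TR15_MeTA5, making 1, without a filter and with spike-in scaling. The cause was not tested.

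Limma called 593 probes higher for tetracycline, against 182 with the filter on all 4 arrays, 1269 without a filter and 1303 with spike-in scaling. Lower calls (3) ranged from 0 to 56, and line calls (0) reached 22 higher and 36 lower without a filter. The signals of the 15 members below background set no limit on their change.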
